A study of Mus musculus with 6 samples.

Results

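A set of 8 kidney epithelial miRNAs was followed as a check of the purity of smooth muscle cultures made from mouse kidney. They were mmu-miR-192, mmu-miR-194, mmu-miR-204, mmu-miR-200a, mmu-miR-200b, mmu-miR-200c, mmu-miR-141 and mmu-miR-429, where mmu marks the mouse, chosen by name as miRNAs of the kidney tubule and of other epithelia outside the miR-30 and miR-10 families. All 8 had a probe among the 599 mouse miRNA probes of the array and a row in the authors' deposited table. The forskolin group was 3 cultures of arteriolar smooth muscle cells (aSMCs) exposed for 24 h to forskolin at 10 µM and IBMX at 100 µM, then given a second dose of 10 µM forskolin 30 min ahead of harvest. Forskolin switches on adenylyl cyclase, which makes cyclic AMP, and IBMX blocks the phosphodiesterases that break it down. The control group was 3 untreated cultures, and the labels name no vehicle. All 6 came from 1 primary line at passage 7, derived from the renin cell lineage of mice of a mixed 129Sv/C57Bl6 background, and the design text describes them as independent cultures with 1 sample on each array. No kidney epithelium was hybridised in these 6 samples, so the signal an epithelial cell would give on this array was not measured here.

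The miR-200 family, made from 2 genomic clusters, keeps epithelial cells in their epithelial state by repressing the ZEB transcription factors, which silence E-cadherin, and is low or silent in most mesenchymal cells. miR-192 and miR-194 are processed from shared primary transcripts and are abundant in kidney tubule, liver and gut epithelium. miR-204 is encoded in an intron of Trpm3 and is known from kidney, retinal and choroid plexus epithelium. Arteriolar smooth muscle is a mesenchymal cell type, and these miRNAs are not among its usual markers.

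The target sequence that the array files give for each probe is shown, because relatives that differ at few bases can hybridise to each other's probes. All 8 were identical to a RefSeq mature miRNA (GRCm38.p6). Each is written 5′ to 3′ with the seed, bases 2 to 8, in capitals. The first pair below shares no seed, miR-204 stands alone among the 8, and the 5 members of the miR-200 family form 2 seed groups, with miR-200a and miR-141 in one and miR-200b, miR-200c and miR-429 in the other.
miR-192: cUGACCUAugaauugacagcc
miR-194: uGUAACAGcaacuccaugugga
miR-204: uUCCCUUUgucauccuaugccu
miR-200a: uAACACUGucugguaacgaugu
miR-141: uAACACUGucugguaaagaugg
miR-200b: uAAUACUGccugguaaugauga
miR-200c: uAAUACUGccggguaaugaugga
miR-429: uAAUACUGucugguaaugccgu

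Counting from 1 at the 5′ end, the seeds of miR-200a and miR-200b differed by C4U alone. miR-200a and miR-141 differed at 2 of 22 bases (C17A and U22G). miR-200b and miR-200c also differed at 2 of the 22 bases compared (U11G and A22G), and miR-200c is 1 base longer. In RefSeq the hairpins of miR-200b (chr4:156055681-156055750), miR-200a (chr4:156054896-156054985) and miR-429 (chr4:156053905-156053987) lie on the minus strand of chromosome 4, with 695 and 908 bases between neighbours, inside the span of the long non-coding RNA gene Gm13648. Those of miR-200c (chr6:124718322-124718390) and miR-141 (chr6:124717914-124717985) lie 336 bases apart on the minus strand of chromosome 6. The hairpin of miR-192 (chr19:6264844-6264932, plus strand) follows that of 1 of the 2 copies of miR-194 (chr19:6264643-6264728) by 115 bases. The other copy (chr1:185313319-185313385) lies inside the span of Iars2, 195 bases from miR-215, and 1 probe reads both copies. The hairpin of miR-204 (chr19:22750605-22750672) lies inside the span of Trpm3.

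Signals were read against the background of each array. Each sample held 3968 spots, 5 for each miRNA probe and 669 empty ones, and was stained in 1 dye, Cy5 in forskolin 1, forskolin 3 and control 2 and Cy3 in forskolin 2, control 1 and control 3. The empty spots averaged 32.6, 192.1 and 34.9 intensity units in forskolin 1 to 3 and 131.2, 31.6 and 200.1 in control 1 to 3, so intensities of samples in different dyes cannot be set side by side. Detection required a 5-spot mean more than 3 standard deviations (SD) of the empty spots above their mean. Forskolin 2 stood apart: 585 of its 599 probes passed, against 175 and 197 in the other 2 forskolin samples and 162 to 225 in the control samples. In forskolin 2 the dim probes, those at or below the median probe of the sample, had a median 29.1 units above the empty spots, which themselves had an SD of 7.07. The corresponding gap was 0.556 and 1.27 units in forskolin 1 and 3 and 7.42, 1.30 and 15.9 units in control 1 to 3. Signals are therefore given also over these dim probes, in units of their scaled median absolute deviation (MAD), and with that background 219 probes passed in forskolin 2. In the other samples 253 and 236 passed in forskolin 1 and 3, and 243, 209 and 244 in control 1 to 3. With 3 arrays a group, precision is limited by their number.

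Only miR-192 and miR-194 gave a signal that left the background in more than 1 sample, and both were dim. In all, 14 of the 48 readings of 8 members in 6 samples passed detection, 12 in forskolin and 2 in control samples. Of the 12, 8 came from forskolin 2, where almost every probe passed, and without that sample 6 readings passed, 4 in forskolin and 2 in control samples. With the dim probes as background 12 passed, 6 in each group, and these were miR-192 and miR-194 in all 6 samples. That background let through 209 to 253 of the 599 probes of a sample, more than the empty spots did in every sample except forskolin 2. Over the empty spots both were under the threshold in control 1 and 2. A bulk sample cannot tell fewer cells that make a miRNA from less of the miRNA in each cell.

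mmu-miR-192 lay 4.72, 8.80 and 5.62 SD above the empty spots in forskolin 1 to 3, and 1.92, 2.39 and 7.18 SD above them in control 1 to 3. It passed detection in 3 of 3 forskolin and 1 of 3 control samples, control 3, and the value of control 3 lay between those of forskolin 2 and 3. In intensity this was 21.5, 62.2 and 27.7 units over the empty spots in forskolin 1 to 3, against 27.5, 4.42 and 102.7 units in control 1 to 3. The SD of the empty spots was 4.55, 7.07 and 4.93 units in forskolin 1 to 3. In control 1 to 3 it was 14.3, 1.85 and 14.3 units, so the SD scale also differs by array. No order of the groups is read from that scale or from the number of samples that passed. All 5 spots were above the threshold in each forskolin sample and in control 3, against 0 of 5 in control 1 and 1 of 5 in control 2. Between 0 and 1.49% of the empty spots of a sample were brighter than the mean of either miR-192 or miR-194. Over the dim probes miR-192 stood at 19.3, 8.28 and 11.8 MAD in forskolin 1 to 3 and at 6.31, 4.06 and 12.1 MAD in control 1 to 3, past 3 in every sample.

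mmu-miR-194, whose probe reads the product of both hairpins, lay 4.74, 12.7 and 10.1 SD above the empty spots in forskolin 1 to 3, and 2.06, 2.33 and 8.64 SD above them in control 1 to 3. As with miR-192, control 1 and control 2 were below the threshold and control 3 was above it. Against the dim probes it stood at 19.4, 15.3 and 21.7 MAD in forskolin 1 to 3 and at 6.92, 3.93 and 15.0 MAD in control 1 to 3. In intensity it had 21.6, 90.1 and 49.5 units over the empty spots in forskolin 1 to 3, against 29.4, 4.32 and 123.6 units in control 1 to 3. Between forskolin 2 and control 3, both in Cy3, control 3 was thus higher in intensity and slightly lower in MAD. The MAD scale is set by the dim probes of each sample, whose MAD was 1.08 units in forskolin 1 and 7.16 units in control 3. No order of the groups is read from it.

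The 6 other members were at or near background. In the 5 samples other than forskolin 2 their 30 readings lay between -0.072 and 1.51 SD over the empty spots, with a median of 0.50. In the same readings 2.69 to 45.0% of the empty spots of the sample were brighter than the member. In forskolin 2 they lay between 3.78 and 5.32 SD and passed detection with the other probes of that sample. Over the dim probes all 36 readings lay between -1.17 and 2.12 MAD, and those of forskolin 2 between -0.60 and 2.12 MAD, so none passed there. A probe at or below the median of its sample helps to set this background and could not pass in these samples. That result therefore says only that these members were not among the brightest 209 to 253 probes of a sample. A further comparison, chosen after seeing the data, used 88 control spots whose names hold 3M, a label the sources used here do not explain. The array files class these spots as spike calibration controls, so they are not blank spots by label. Over the median of these spots the 36 readings lay between -0.44 and 1.41 MAD, against 2.12 to 14.8 MAD for miR-192 and miR-194. Another comparison, also chosen after seeing the data, used 16 control spots named BKG0, a label likewise not explained. With their mean plus 3 SD as the threshold, miR-200c and miR-141 each passed in 1 forskolin sample. No other of these 6 members passed.

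**Figure D1:**
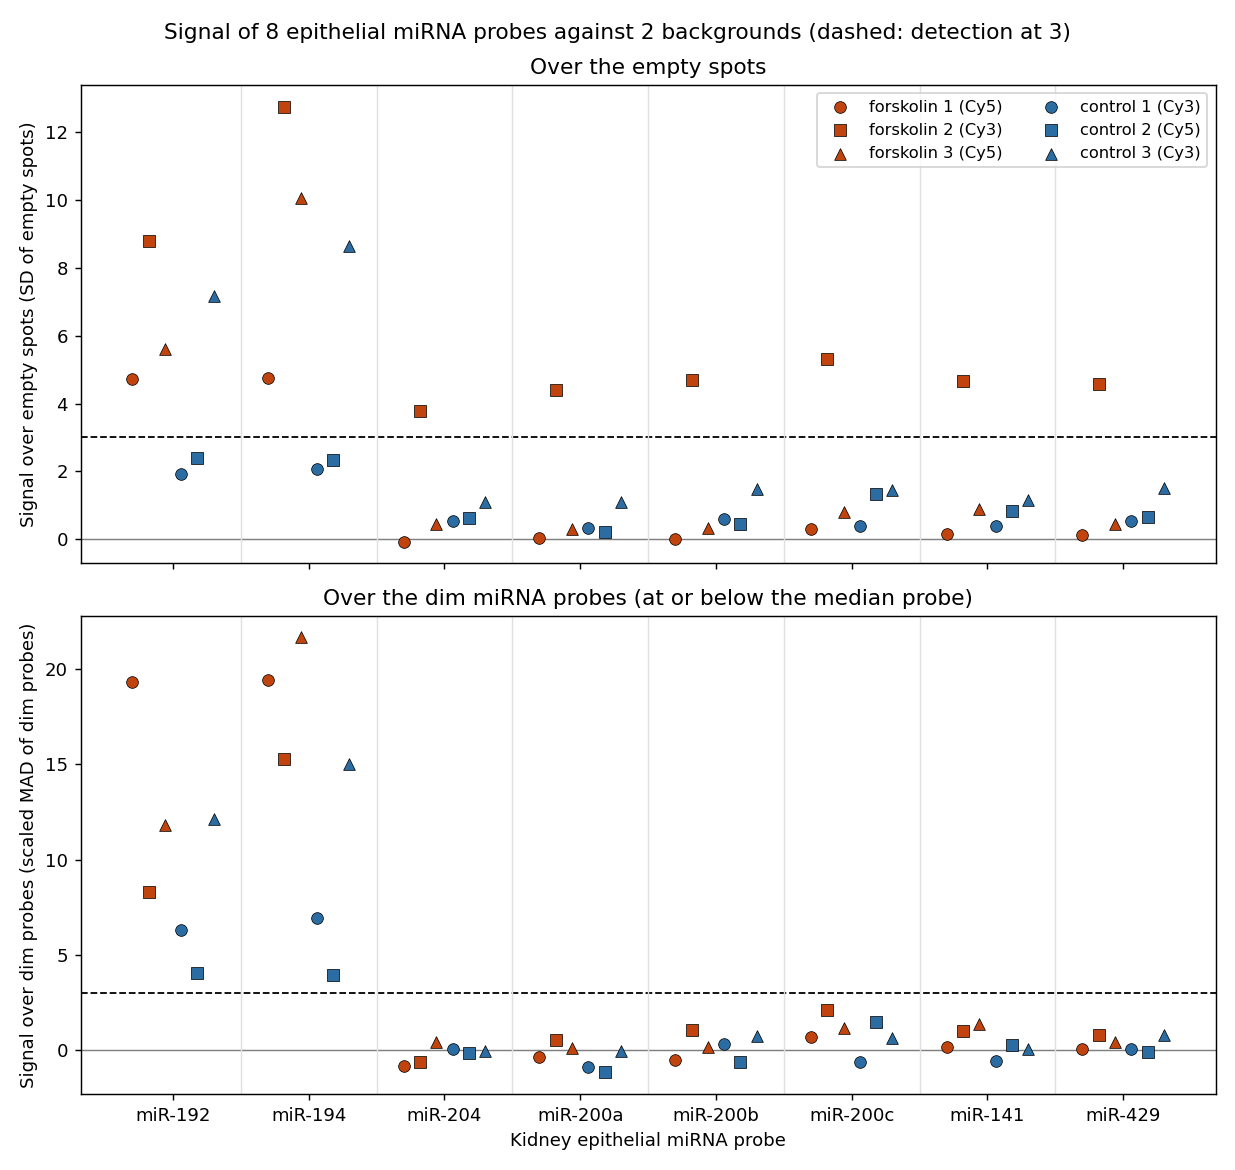
Signal of each of the 8 members (x axis) in each sample, over the empty spots in SD of the empty spots (top) and over the dim miRNA probes in scaled MAD of those probes (bottom). Points are single samples, coloured by group, with the replicate as the shape, and the dashed line is the detection threshold of 3. miR-192 and miR-194 are above the line in every sample in the bottom panel, and the 6 other members are above it in forskolin 2 of the top panel alone.

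All 5 miR-200 family members are among these 6. mmu-miR-200c lay 0.29, 5.32 and 0.79 SD above the empty spots in forskolin 1 to 3, and 0.39, 1.32 and 1.44 SD in control 1 to 3. mmu-miR-200b lay at -0.0058, 4.71 and 0.33 SD in forskolin 1 to 3, and at 0.59, 0.44 and 1.48 SD in control 1 to 3. Outside forskolin 2 every reading of both was under the threshold in forskolin and control samples.

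The remaining members of the chromosome 4 cluster are miR-200a and miR-429. mmu-miR-200a lay at 0.043, 4.41 and 0.31 SD in forskolin 1 to 3, and at 0.33, 0.22 and 1.10 SD in control 1 to 3. mmu-miR-429 lay at 0.14, 4.58 and 0.44 SD in forskolin 1 to 3, and at 0.54, 0.67 and 1.51 SD in control 1 to 3. Apart from forskolin 2, control 3 was the highest sample for each of them, and forskolin 1 and 3 were under 1 SD.

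mmu-miR-141, the partner of miR-200c on chromosome 6, lay at 0.16, 4.68 and 0.89 SD in forskolin 1 to 3, and at 0.39, 0.82 and 1.14 SD in control 1 to 3. mmu-miR-204 lay at -0.072, 3.78 and 0.45 SD in forskolin 1 to 3, and at 0.54, 0.64 and 1.09 SD in control 1 to 3. The readings of miR-141 and miR-204 outside forskolin 2 were likewise all under the threshold. At this signal over background a difference between forskolin and control cultures was not detectable for these 6 miRNAs, which does not show that they are absent from the cells.

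The authors' deposited table, which holds whole-number intensities on a scale the sources used here do not describe, was read for the same members. miR-192 had values of 38, 28 and 32 in forskolin 1 to 3, against 23, 18 and 33 in control 1 to 3. miR-194 had 38, 46 and 52 in forskolin 1 to 3, against 23, 22 and 41 in control 1 to 3. In this table control 3 was the highest control for both and overlapped the forskolin range. The 6 other members had 4 to 13 in forskolin samples, with a median of 7.5, and 2 to 10 in control samples, with a median of 5.5. Of these 36 values, 34 were at or below the median probe of their sample, which was 11, 11 and 10 in forskolin 1 to 3 and 10, 11 and 8 in control 1 to 3. The exceptions were miR-200c, at 13, and miR-429, at 12, both in forskolin 2. Summed over the 8 members the deposited values ran from 113 to 131 in forskolin samples and from 80 to 94 in control samples, a description in which miR-192 and miR-194 have the largest part and for which no test was made.

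Probes related to the members by hairpin or by sequence were also at or near background. The array held 6 such probes, miR-200a*, miR-200b*, miR-200c*, miR-141*, miR-215 and miR-211, where a star marks the passenger strand. Each passed detection in forskolin 2 alone. Over the dim probes 1 reading passed, miR-200b* in forskolin 3, the reading of 3.84 MAD. A pair of them is shown because their sequences differ little from those of members.
miR-215: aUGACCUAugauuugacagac
miR-211: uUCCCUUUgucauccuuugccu
miR-215 has the seed of miR-192 and differs from it at 3 of 21 bases (C1A, A12U and C20A, from miR-192 to miR-215). Its probe lay at -0.044, 4.01 and 0.36 SD over the empty spots in forskolin 1 to 3, and at 0.74, 0.77 and 2.02 SD in control 1 to 3. Its readings over the dim probes stayed at or under 1.81 MAD. miR-211 has the seed of miR-204 and differs from it at 1 of 22 bases (A17U). Its probe, like that of miR-204, passed in forskolin 2 alone.

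Among the lists of cell types, that of smooth muscle and mesenchymal miRNAs was detected throughout. Whether these miRNAs are restricted to such cells was not tested. All 8 probes on that list were detected in 6 of 6 samples by either background, with miR-21, miR-199a-3p, miR-214 and miR-145 named here. Their lowest reading in any sample was 2875 SD over the empty spots for miR-21, 1375 SD for miR-199a-3p, 1407 SD for miR-214 and 635 SD for miR-145. None of the 8 passed the test for forskolin against control, in which 10 of the 167 tested probes, or 5.99%, were called. With so low a share this does not show that the list was unchanged. On the list of other epithelial miRNAs, 2 of 7 probes, miR-182 and miR-183, were also detected in all 6 samples. Both belong to a cluster on chromosome 6 that is known from sensory epithelia and is also expressed outside epithelia.

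miR-183 had deposited values of 2611, 3284 and 4323 in forskolin 1 to 3, against 2132, 3451 and 2071 in control 1 to 3. miR-182 had 2391, 2458 and 3207 in forskolin 1 to 3, against 2912, 2798 and 2671 in control 1 to 3. The groups overlapped for both, and neither passed the test, with log2 differences of 0.52 (SE 0.26, limma adjusted p = 0.358) and 0.12 (SE 0.23, adjusted p = 0.831). miR-96, whose hairpin lies 116 bases from that of miR-183, passed over the empty spots in forskolin 2 and control 3 alone, with deposited values of 16, 17 and 7 in forskolin 1 to 3 and 15, 13 and 22 in control 1 to 3. Of the other 4 probes of the list, miR-205 passed in 2 forskolin samples and 1 control sample, and miR-203, miR-375 and miR-184 passed in forskolin 2 alone. Over the dim probes miR-96 passed in forskolin 1 (4.32 MAD), forskolin 2 (3.67 MAD) and control 3 (5.91 MAD). With that background miR-205 passed in 1 sample of each group, and miR-203, miR-375 and miR-184 in none.

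Lists of endothelial, blood and neural miRNAs were read as further checks of purity. Neither endothelial probe, miR-126-3p and miR-126-5p, passed outside forskolin 2, although over the dim probes miR-126-3p passed in 2 of 3 forskolin and 0 of 3 control samples. On the blood list miR-155 was detected in 6 of 6 samples, and among the other 6 probes 1 reading outside forskolin 2 passed, miR-142-3p in control 2. Over the dim probes miR-150 also passed in 2 of 3 forskolin samples, at 6.12 MAD in forskolin 1 and 3.75 MAD in forskolin 3, and in 0 of 3 control samples, and miR-142-3p passed in 1 sample of each group. On the neural list miR-128, which is not restricted to neurons, was detected in 6 of 6 samples, and the other 5 probes passed in forskolin 2 alone. The summed deposited values of each list were 39 to 54 in forskolin samples and 36 to 55 in control samples for the related probes, 5041 to 7571 in forskolin and 4798 to 6289 in control samples for the other epithelial list, and 14 to 27 in forskolin and 14 to 18 in control samples for the endothelial list. They were 14880 to 19885 in forskolin samples and 13535 to 18378 in control samples for the blood list, and 309 to 400 in forskolin and 223 to 503 in control samples for the neural list. Nearly all of the blood sum was miR-155 alone, with 15056 of 15100 in forskolin 1 and 13510 of 13535 in control 3. miR-128 made up most of the neural sum, with 321 of 349 and 209 of 223 in the same samples. miR-182 and miR-183 made up most of the other epithelial sum. For the smooth muscle and mesenchymal list the sums were 73262 to 95909 in forskolin samples, against 99815 to 124305 in control samples. miR-21 had a large part in them, with 43008 of 95909 in forskolin 1 and 60383 of 124305 in control 3. Its own deposited values overlapped between the groups. On the deposited scale, whose normalization is not known, the group sums did not overlap for the 8 epithelial members or for the smooth muscle and mesenchymal list. Taken singly, miR-192 and miR-194 overlapped between the groups. No share of probes or lists without overlap was computed on this scale. Sums over the empty spots are given by dye, because intensities in different dyes cannot be set side by side. In Cy5 the 8 members had 45.6 and 93.1 intensity units in forskolin 1 and 3, against 16.3 in control 2. In Cy3 they had 346.6 in forskolin 2, against 96.6 and 337.2 in control 1 and 3. The smooth muscle and mesenchymal list had 110690 and 106174 units in forskolin 1 and 3, against 57933 in control 2 (Cy5). In Cy3 that list had 113041 units in forskolin 2, against 106881 and 116107 in control 1 and 3. Each dye holds few samples, and in forskolin 2 almost every probe passed detection. No direction is given for either list. The part of other cells in either sum was not tested.

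**Figure D2:**
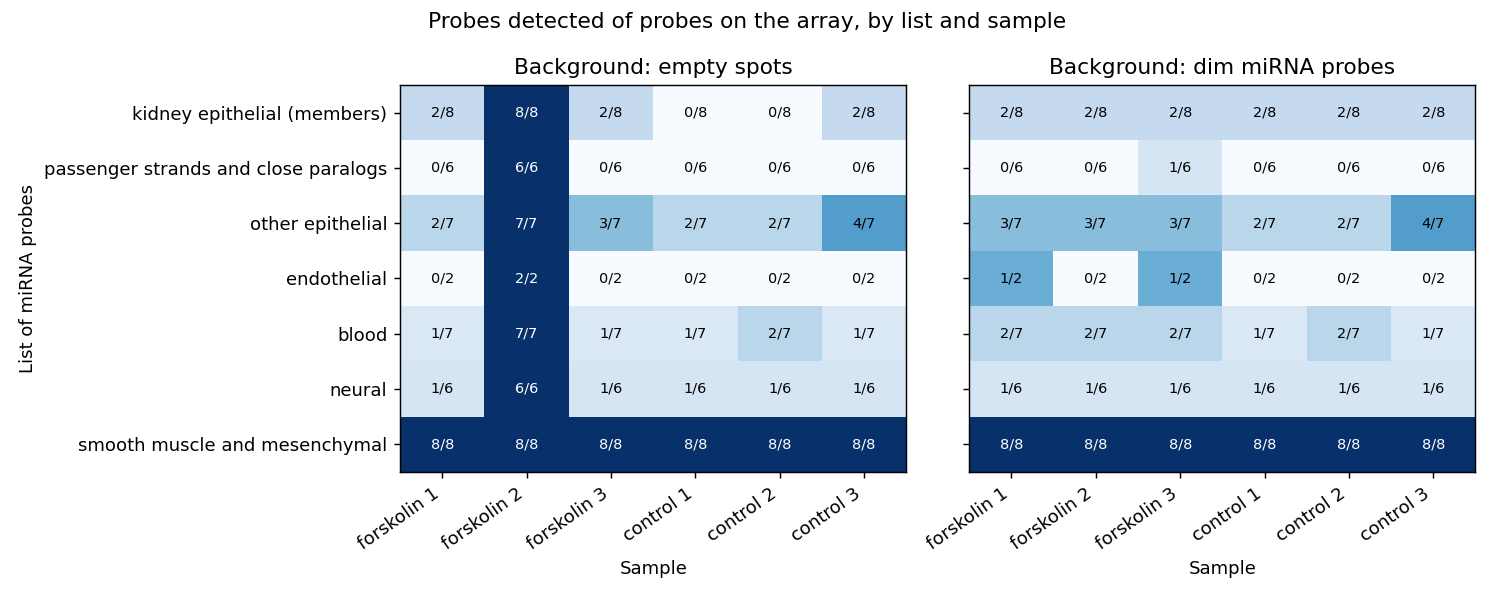
Number of probes detected of those on the array (printed in each cell, darker for a higher share) for each list (rows) and sample (columns), against the empty spots (left) and the dim miRNA probes (right). All 8 smooth muscle and mesenchymal probes are detected in every sample, and 2 of the 8 epithelial members are detected in every sample at right. Forskolin 2 has every listed probe detected at left.

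For the comparison of forskolin with control cultures, spot intensities were corrected for background with an offset of 50, averaged per probe and quantile-normalized on the log2 scale, and limma was fitted with a term for the dye. The question was whether the treatment that induces renin moved the epithelial miRNAs. Probes detected in all samples of at least 1 group were tested, 167 in all, and miR-192 and miR-194 were the 2 members among them. They entered through the forskolin group alone, where they passed in 3 of 3 samples, against 1 of 3 control samples. That filter favours higher readings in forskolin, so the order of the groups and the pairs given below are descriptions and support no difference. With all probes tested, the limma adjusted p was 0.825 for miR-192 and 0.383 for miR-194. With detection over the dim probes, a filter chosen after seeing the data that both passed in all 6 samples, it was 0.741 for miR-192 and 0.289 for miR-194. Neither passed an adjusted p of 0.05, or an unadjusted p of 0.05, in a comparison in which 10 of the 167 tested probes, or 5.99%, were called. Of the 10, 4 were higher in forskolin cultures, or 2.4% of the tested probes. When replicate numbers entered as blocks, 30 probes were called, or 18%, and again neither member. The 10 calls fell to 0 without forskolin 2 (21 at an unadjusted p under 0.05), without control 2 (20) or without both samples of replicate 1 (22), and became 5 without forskolin 3, 3 without control 3 and 25 without both samples of replicate 3.

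miR-194 had a normalized log2 intensity of 6.82, 6.97 and 6.92 in forskolin 1 to 3, against 6.52, 6.53 and 6.76 in control 1 to 3. All 3 forskolin values lay above all control values, as they did for 10.2% of the tested probes, and control 3 was nearest to them. The level was 6.90 ± 0.08 in forskolin and 6.61 ± 0.14 in control cultures (SD, n = 3 each). The fitted log2 difference was 0.33, SE 0.20, with a 95% interval of -0.15 to 0.81 and a limma adjusted p of 0.428, and miR-194 was higher in 3 of 3 pairs of the same replicate number. The median difference of all tested probes was -0.01, and the offset makes differences of dim probes look smaller than they are.

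miR-192 had 6.81, 6.66 and 6.66 in forskolin 1 to 3, against 6.50, 6.54 and 6.70 in control 1 to 3. Control 3 exceeded 2 of the forskolin values, so the groups overlapped. The level was 6.71 ± 0.08 in forskolin and 6.58 ± 0.11 in control cultures (SD, n = 3 each). The fitted log2 difference was 0.12, SE 0.20, with a 95% interval of -0.35 to 0.60 and a limma adjusted p of 0.795, and miR-192 was higher in 2 of 3 pairs. Both intervals include no difference, and neither shows that the groups are alike.

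**Figure D3:**
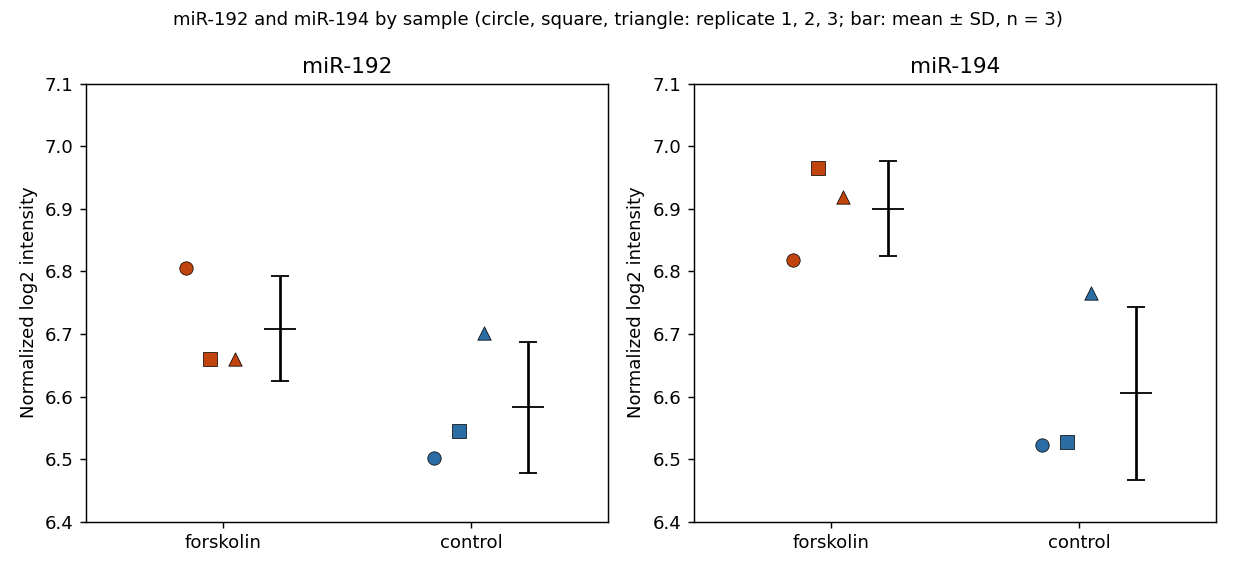
Normalized log2 intensity (y axis, 6.4 to 7.1) of miR-192 and miR-194 in forskolin and control samples, with circle, square and triangle for replicates 1, 2 and 3 and bars for the mean ± SD (n = 3). With quantile normalization the miR-194 groups do not overlap, and control 3 lies among the forskolin values of miR-192.

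The direction of both differences depended on the scaling of the arrays. With each array scaled to the median of the probes detected on all arrays, the log2 difference was -0.55 for miR-192 and -0.37 for miR-194, and with the 75th percentile of those probes it was -0.54 and -0.36, while the tested probes as a whole had a median of -0.24 and -0.22. With the empty-spot mean subtracted in place of the offset it was 0.44 for miR-192 and 0.99 for miR-194, with a limma p of 0.0217 for miR-194 before adjustment and 0.166 after it. From the deposited table it was 0.55 and 0.68, at limma adjusted p of 0.417 and 0.245. In none of the 23 alternatives in which both were tested did either pass an adjusted p of 0.05, with a lowest adjusted p of 0.417 for miR-192 and 0.166 for miR-194.

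**Figure D4:**
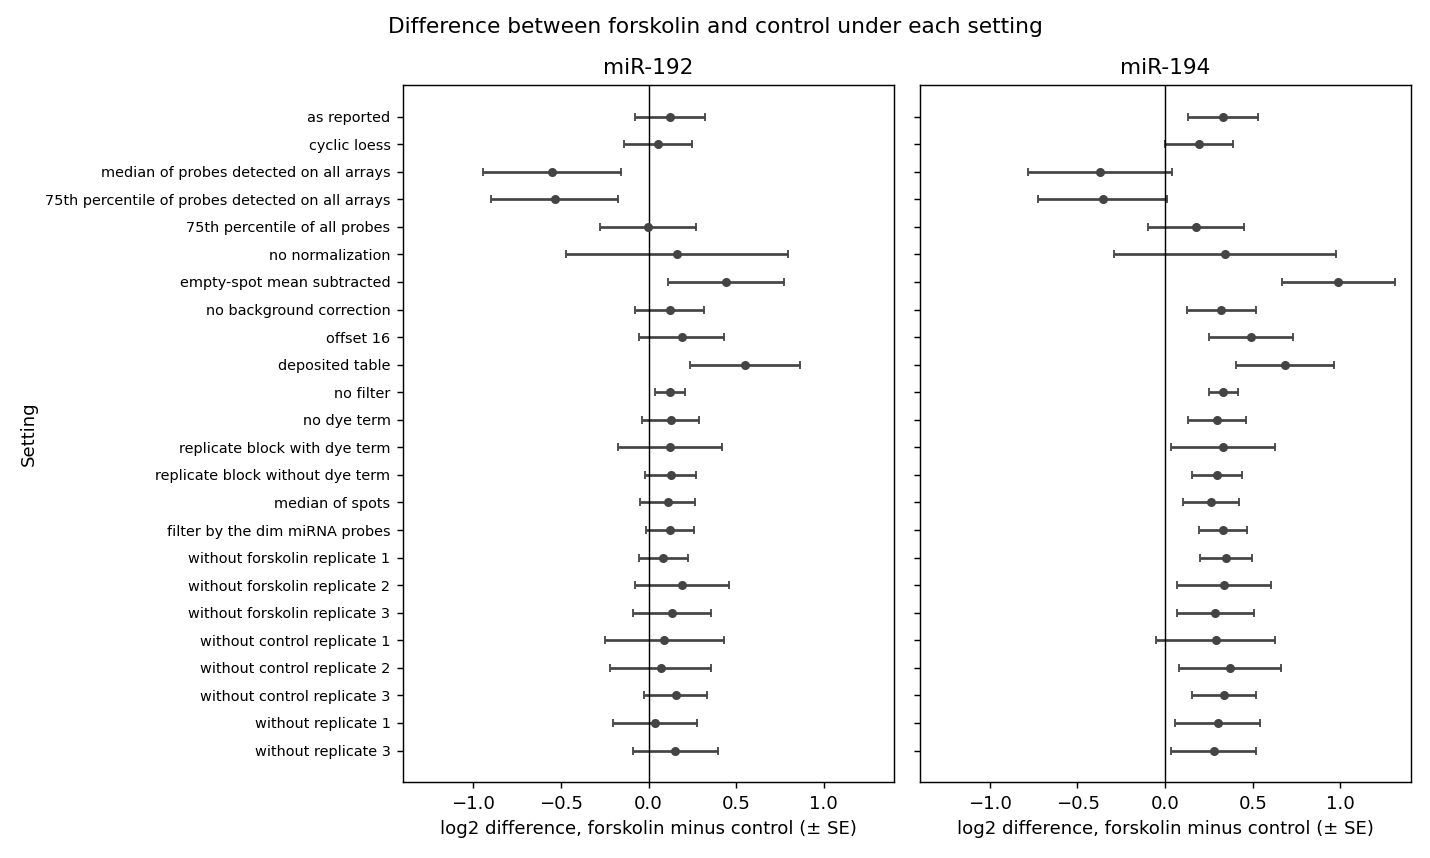
Fitted log2 difference, forskolin minus control, with its SE (x axis) for miR-192 (left) and miR-194 (right) under each setting (rows). miR-192 ranges from -0.55 to 0.55 and miR-194 from -0.37 to 0.99, and the scalings to probes detected on all arrays lie left of 0 for both.

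The 6 members that were not tested differed by -0.02 to 0.05 between the forskolin and control means of normalized log2 intensity, with a median of 0.02. These values depended on the scaling: the 6 differences were -0.42 to -0.36 with each array scaled to the median of the probes detected on all arrays, -0.53 to -0.47 with the 75th percentile of those probes and -0.25 to -0.19 without normalization. From the deposited table they were -0.10 for miR-204 to 0.60 for miR-200a, and with the empty-spot mean subtracted -0.05 to 0.41. No direction is therefore given for these 6 miRNAs. With quantile normalization their levels were 6.18 to 6.35 in forskolin samples and 6.17 to 6.31 in control samples, so the 2 ranges overlapped. By member, miR-141 had 6.28 ± 0.03 in forskolin and 6.23 ± 0.02 in control cultures, and miR-204 had 6.22 ± 0.04 in forskolin and 6.23 ± 0.01 in control cultures (SD, n = 3 each). Over all miRNA probes of the array these plain differences had a median of -0.0029.

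The pattern of miR-194 over the 6 samples was most like those of miR-30b (Pearson r = 0.96), miR-30e* (r = 0.95) and miR-212 (r = 0.94) among the 166 other tested probes. That of miR-192 was most like those of miR-30a (r = 0.92), miR-152 (r = 0.91) and miR-322 (r = 0.88). These are descriptions over 6 samples that were normalized together and stained in 2 dyes, 3 samples in each. miR-192 and miR-194, neighbours on chromosome 19, had an r of 0.69 with each other, and miR-192 had rank 22 among the probes most like miR-194. For miR-30b the log2 difference was 1.11 (SE 0.29, limma adjusted p = 0.0714), against 0.33 for miR-194.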

How the data were processed

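Cultures were labelled with Cy3 or Cy5 by a service provider after size selection and poly(A) tailing, per the labels. Per the file headers, each spot has an intensity that is its mean density before any local background is taken off. The deposited table holds 1 whole-number intensity per miRNA and sample. Its log2 values correlated with the spot values minus the empty spots at 0.996 or above over tested probes, and how the authors normalized it is not given in the sources used here. It served as an alternative, as log2 of the value plus 1. No column of sample values was left unused.

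Background was corrected on all spots (normexp, offset 50), and spots were averaged per probe and quantile-normalized (limma 3.58.1, R 4.3.3). The test was lmFit and eBayes with a dye term on 167 probes, Benjamini-Hochberg adjusted, two-sided, threshold 0.05. Deviations from group means correlated at 0.397, 0.473 and 0.359 between forskolin and control samples of replicates 1, 2 and 3. Samples of different numbers were not compared, so this does not show that the numbers pair the samples, which the labels do not state. The reported fit has no replicate block, and fits with one are given as alternatives. With the block and the dye term 1 residual degree of freedom is left. The steps were tested on simulated data. Members and lists were chosen with earlier results of these data known. The naming rule took all members, the 3 tested probes most like each tested member, up to 2 probes of each other list and up to 4 of the smooth muscle and mesenchymal list. The names miR-96, miR-203, miR-205, miR-375, miR-184, miR-211, miR-215, miR-126-5p, miR-142-3p and the star strands fall outside this rule and were picked with their values known.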

Additional observations from a re-analysis of the deposited data

How the results depend on the processing

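The count of members past an adjusted p of 0.05 was 0 as reported and 0 in the 23 alternative fits that tested members. When a probe had to be detected in all 6 samples, no member was tested. The replicate block changed neither member's call (adjusted p of 0.877 for miR-192 and 0.648 for miR-194 with the dye term, 0.614 and 0.230 without it). At an unadjusted p of 0.05, miR-194 passed in 3 alternatives: subtraction of the empty spots, the deposited table and no filter on dim probes. The log2 difference of miR-192 turned to -0.55 (median of probes detected on all arrays), -0.54 (75th percentile of those) and -0.0047 (75th percentile of all probes, where the median of all tested probes was 0.31). That of miR-194 turned to -0.37 and -0.36 in the first 2 of these, and the cause was not tested. Leaving out single samples or both of replicate 1 or 3 gave 0.037 to 0.19 for miR-192 and 0.28 to 0.37 for miR-194. Without both samples of replicate 2, dye and group coincide, and the fit with the dye term was not run. For the 6 untested members, 112 of 144 differences of means under the alternatives moved by less than 1 SD and 32 by more. Of the 48 readings, the 14 detected (12 forskolin, 2 control) were 8 (6 and 2) over the 3M control spots, an alternative chosen after seeing the data. Over the BKG0 control spots, also chosen after seeing the data, there were 10 (8 and 2). Over the dim probes there were 6 in forskolin and 6 in control samples. In control samples there were 5 with a threshold of 2 SD and 4 with the median and MAD of the empty spots. Leaving out 1 sample gave 6 to 14 in all, 4 to 12 in forskolin and 0 to 2 in control samples, with 6 and 4 without forskolin 2 and 0 in control samples without control 3. Of all tested probes, 10 were called as reported, against 30 with the replicate block and dye term, 24 with the block alone, 18 without the dye term, 5 without normalization or with the median of spots, 4 with the empty spots subtracted, from the deposited table or with the filter on dim probes, and 1 of 599 without a filter (47 at an unadjusted p under 0.05). Signal over background limits what can be said of the 6 dim members.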
